A study of Mus musculus with 107 samples.

Results

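Sult3a1, Sult1e1 and Sult2a8 are liver sulfotransferases, and they were followed here across the livers of single mice. They are 3 of the 12315 genes with values on at least 90% of arrays, and they were chosen by name, for the width of their ranges over these mice. Each is read by 1 probe, so no second probe backs any of the values below. Sulfotransferases move a sulfonate group from the donor PAPS to a hydroxyl or amine group of a small molecule, which makes it more soluble in water and, for a hormone, usually inactive. Sult1e1 is the estrogen sulfotransferase, Sult2a8 belongs to the hydroxysteroid branch of the family and sulfonates bile acids, and Sult3a1 acts on amines. Sult3a1 is known in mouse liver as a transcript more abundant in females than in males, and hepatic sulfotransferases in general answer to growth hormone, to nuclear receptors and to nutrition.

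The mice were F2 females of a cross of C57BL/6J with DBA/2J, both inbred strains, all fed an atherogenic diet, so every mouse shared sex and diet and each carried its own mixture of both parental genomes. Liver RNA of each mouse was set against a common pool, made of equal RNA portions of the mice, on a 2-colour array. Of the 107 arrays of this single group, 3 were empty, which leaves 104 mice. No age, genotype or treatment group is given in the labels, so the comparison is how genes follow each other from mouse to mouse. A ratio to a pool does not show the level of a gene, so neither the levels of the 3 genes nor the liver identity of the samples could be read from marker levels. In a whole liver, fewer cells of a type and less RNA per cell cannot be told apart.

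Values are given as the log2 ratio of mouse to pool. The deposited scale stops at exactly -2 and 2, which was read as log10 and a limit of 100-fold. The dyes are not named, so neither the log base nor the direction is settled. With the natural logarithm or base 2 every fold below would be smaller, while r and ranks would stay as they are. In a pool of equal parts the linear ratios of a gene average about 1, apart from unmeasured mice. Read as mouse over pool in base 10, the mean ratio was 0.772 for Sult3a1, 1.24 for Sult1e1 and 0.979 for Sult2a8. With all signs turned it was 26.7, 4.03 and 3.61, so mouse over pool is taken as the likely direction. If it were the reverse, the high and low sides below would change places and r between genes would not. Of the 5356 pairs of arrays, 6 correlated below -0.3 over all probes, so the direction of single arrays is not settled either.

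Arrays rich in values at the limits were kept apart. On 18 arrays, called limit-rich, between 946 and 1828 values had reached a limit of the scale. The other 86 arrays had 0 to 496 such values. The limit-rich arrays are of mice numbered 59 to 107. The median array had an SD over genes of 0.38 log2, and the SDs ran from 0.24 to 1.31. No array was repeated, so noise of the arrays is part of the spread between mice, and precision is limited by how many arrays there are.

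Sult3a1 had the widest range of all genes. Its ratio was -6.53 in the lowest measured mouse, -3.88 in the median mouse and 3.79 in the highest (SD 2.73, n = 102). In 2 of 104 mice (1.92%) the value stood at the deposited limit of -2, and these mice, both on limit-rich arrays, were treated as not measured. No value stood at the upper limit and none was missing. Between the 5th and 95th percentile the range was 211-fold, against 1.94-fold in the median gene. Most mice were low: 79 lay more than 2-fold below the pool, 38 of them below -5 log2, and 12 lay more than 2-fold above it. The pool level itself was exceeded in 19 mice. The distribution leaned to the right (skewness 0.72) and had light tails (excess kurtosis -0.56). The lower mice lay close to the floor of the scale (-6.64 log2), which bounds the range on that side.

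Sult1e1 was spread evenly on both sides of its median. Its ratio was -4.55 in the lowest mouse, -0.94 in the median mouse and 4.53 in the highest (SD 1.87, n = 104), and no value stood at a limit. The range of 51.5-fold was the 8th widest. More than 2-fold below the pool lay 49 mice, within 2-fold of it 39 and more than 2-fold above it 16. Skewness was 0.11 and excess kurtosis -0.33. On the 18 limit-rich arrays alone the range was 14.1-fold, and without them it was 57.1-fold.

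Sult2a8 had its long tail on the low side. Its ratio was -5.13 in the lowest mouse, -0.66 in the median mouse and 1.92 in the highest (SD 1.66, n = 104), with no value at a limit. The range of 41.5-fold was the 13th widest. Within 2-fold of the pool lay 50 mice, more than 2-fold below it 41 and more than 2-fold above it 13, and 11 mice lay below -3 log2. Skewness was -0.68 and excess kurtosis -0.16. An excess kurtosis below 0, as in all 3 genes, was found in 11.0% of all genes, whose median was 2.28.

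None of the 3 distributions showed a gap that set clusters of mice apart. Steps between mice cannot show clusters that overlap, and such clusters were not tested. Inside the 5th to 95th percentile, the largest step between neighbouring mice was 0.54 log2 for Sult3a1, 0.24 for Sult1e1 and 0.54 for Sult2a8. The mice were therefore not divided, and the correlations below are over all of them.

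**Figure D1:**
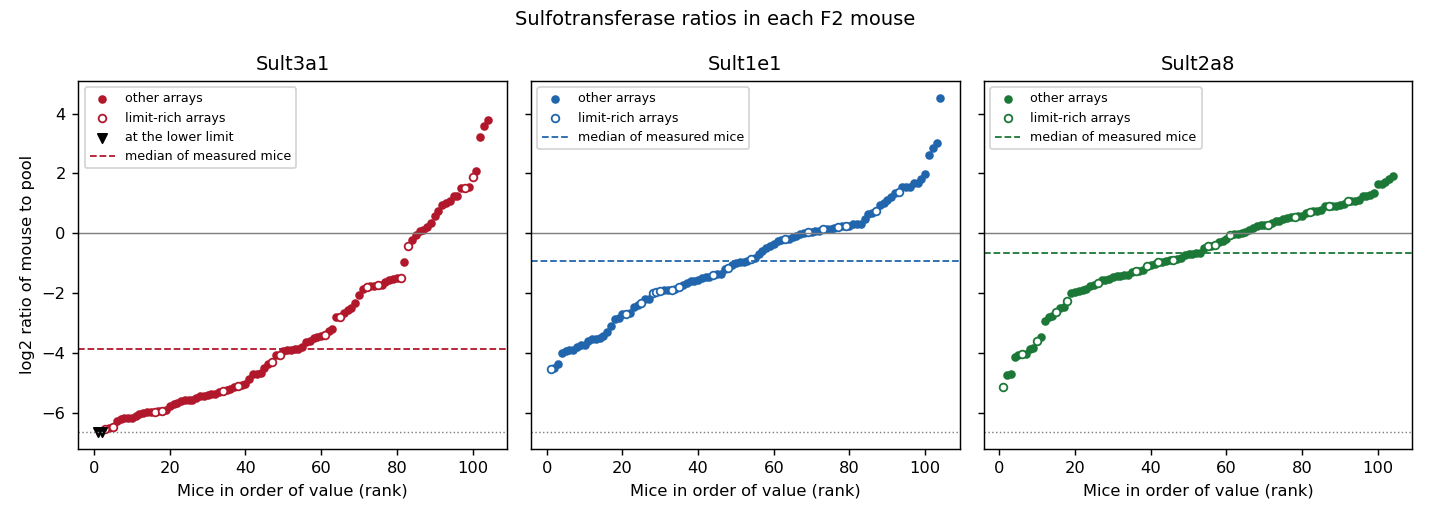
Log2 ratio of mouse to pool (vertical axis) for each mouse in order of its value (horizontal axis), for Sult3a1, Sult1e1 and Sult2a8. Filled points are mice on the other 86 arrays, open points mice on the 18 limit-rich arrays, triangles the 2 mice at the lower limit (dotted line), and dashed lines the medians of -3.88, -0.94 and -0.66. Sult3a1 lies low in most mice and climbs steeply in a few, Sult1e1 climbs evenly, and Sult2a8 drops away in its lowest mice.

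The extremes of the 3 genes only partly fell on the same mice. Mouse 43 was highest for Sult2a8 (1.92) and next to highest for Sult3a1 (3.57), with Sult1e1 at -1.37. Mouse 15 was highest for Sult1e1 (4.53) and among the 5 lowest measured for Sult3a1 (-6.20), with Sult2a8 at -4.04. Mouse 120 was next to highest for Sult1e1 (3.00) and next to lowest for Sult2a8 (-4.72). Mouse 92 was lowest for Sult1e1 (-4.55) and also low for Sult3a1 (-6.47) and Sult2a8 (-2.63). In that mouse all 3 genes were low together.

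Sult3a1 and Sult2a8 went together from mouse to mouse. Pearson's r was 0.54 and Spearman's rho 0.60 over 102 mice, each with a two-sided permutation p of 1e-05, the smallest that 100000 permutations can give, and an adjusted p of 3e-05 over the 3 pairs. In the limma fit of all genes on Sult3a1 the adjusted p for Sult2a8 was 3.29e-06, and Sult2a8 ranked next to highest in positive r among 12314 genes. The reverse did not hold: among the partners of Sult2a8, Sult3a1 stood only at place 972 in positive r. Without mice 155 and 43, the farthest from the Sult3a1 median, r was 0.52. Within the 86 other arrays r was 0.54, and within the limit-rich ones 0.52 (n = 16), where limma's adjusted p was 0.237. Both genes were above the pool in 13 mice, Sult3a1 alone in 6, Sult2a8 alone in 28 and neither in 57. So mice high in Sult3a1 were mostly high in Sult2a8 as well, while many mice had Sult2a8 above the pool with Sult3a1 below it.

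Sult1e1 was not shown to follow either gene. With Sult3a1, r was -0.084 (permutation p = 0.398, adjusted over the 3 pairs 0.398; rho -0.088, p = 0.379; n = 102), and r was -0.098 on the 86 other arrays and 0.018 on the limit-rich ones. With Sult2a8, r was -0.19 (permutation p = 0.0531, adjusted 0.0797; rho -0.098, p = 0.324; n = 104), and -0.22 and -0.094 on the same arrays. Without mice 15 and 120, the farthest from the Sult1e1 median, the latter r was -0.093.

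**Figure D2:**
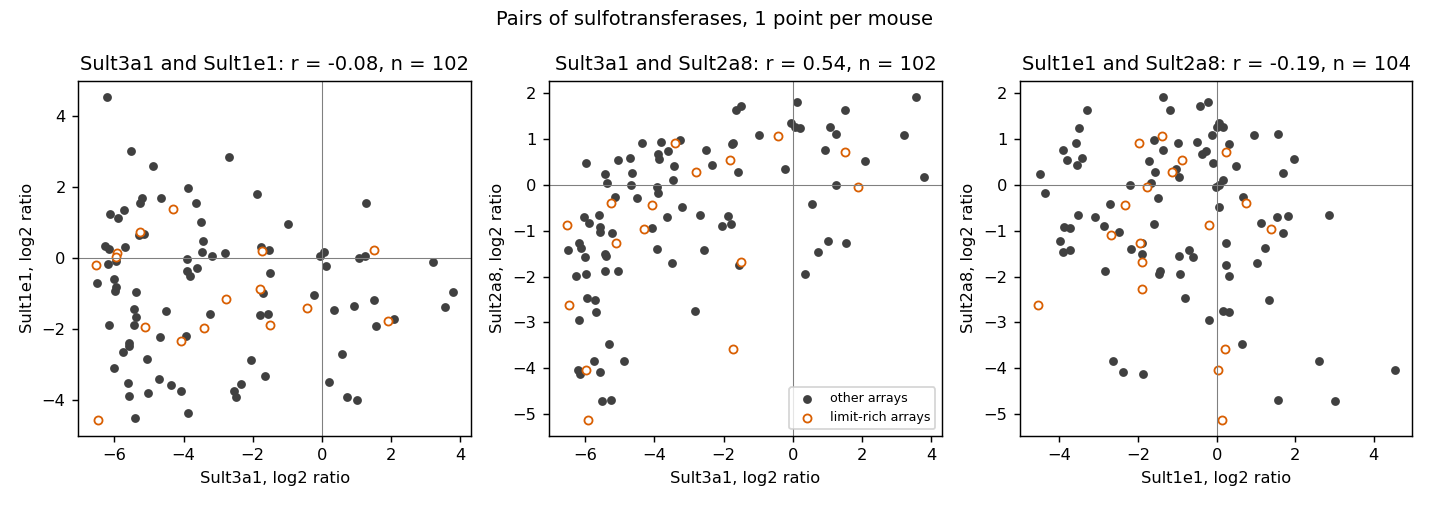
Log2 ratio of mouse to pool of each pair of genes, 1 point per mouse, with Pearson's r and n above each panel. Open points are mice on limit-rich arrays, and grey lines mark the pool level. Sult3a1 and Sult2a8 rise together (r = 0.54), while the panels with Sult1e1 show no clear slope (r = -0.08 and -0.19). All 11 mice with Sult2a8 below -3 log2 have Sult3a1 below the pool, but so do most mice, as only 19 of 102 exceed it.

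A large share of the liver's genes moved on a common axis, and the 3 genes lay on it to different degrees. The first principal component over all genes held 19.5% of the variance. Its r with Sult2a8 was 0.85, with Sult3a1 0.49 (both permutation p 1e-05) and with Sult1e1 -0.26 (permutation p = 0.00709; rho -0.19, p = 0.0537). With this component removed from every gene, r of Sult3a1 and Sult2a8 was 0.25 and limma's adjusted p 0.276, the highest over the alternatives, whose lowest was 4.11e-07. The component was computed with these genes included, so its removal also takes away part of their own pattern. Of the array measures, the SD of the array went with Sult2a8 (r = -0.32, adjusted permutation p = 0.00488 over 12 relations; rho -0.16, adjusted p = 0.174). The mouse number went with Sult1e1 (r = -0.27, adjusted permutation p = 0.0119) and with Sult2a8 (r = -0.30, adjusted permutation p = 0.006). For Sult3a1 the r with mouse number was -0.19 (adjusted permutation p = 0.0986; rho -0.24, adjusted p = 0.0341). The part of the mouse numbers in the relations below was not tested.

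The sequences just before each listed transcription start are shown because Sult3a1 and Sult2a8 moved together and Sult1e1 did not follow them. They are the 250 bases upstream of the start in RefSeq (assembly GRCm38.p6), 5′ to 3′ on the gene's strand, with both starts listed for Sult2a8. RefSeq's gene records of Sult3a1 and Sult2a8 begin upstream of the starts shown, so further starts are not shown here. The Sult3a1 window and the second Sult2a8 window lie inside these records, and the first Sult2a8 window lies partly inside. Capitals mark matches on either strand to TTCNNNGAA (a STAT5 motif), AGGTCA (a nuclear receptor half-site), ATTGAT (a core shared by HNF6 and CUX2 motifs) and TATAAA. A match on the opposite strand reads as its reverse complement.
Sult3a1, chr10:33857472-33857721, plus strand: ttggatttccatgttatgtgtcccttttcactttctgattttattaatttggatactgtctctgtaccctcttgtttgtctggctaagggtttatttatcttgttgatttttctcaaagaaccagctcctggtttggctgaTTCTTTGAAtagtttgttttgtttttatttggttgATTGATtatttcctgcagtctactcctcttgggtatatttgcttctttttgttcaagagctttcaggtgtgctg
Sult1e1, chr5:87591612-87591861, minus strand: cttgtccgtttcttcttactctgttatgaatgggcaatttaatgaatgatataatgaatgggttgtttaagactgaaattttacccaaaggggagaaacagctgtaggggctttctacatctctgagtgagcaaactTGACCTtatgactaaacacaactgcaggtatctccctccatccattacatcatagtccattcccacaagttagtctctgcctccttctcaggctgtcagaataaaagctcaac
Sult2a8, chr7:14446588-14446837, minus strand: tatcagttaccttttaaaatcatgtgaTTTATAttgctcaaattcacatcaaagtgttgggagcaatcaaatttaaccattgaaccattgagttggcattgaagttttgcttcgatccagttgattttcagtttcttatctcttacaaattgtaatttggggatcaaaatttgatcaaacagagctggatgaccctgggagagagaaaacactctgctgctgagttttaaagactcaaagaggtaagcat
Sult2a8, chr7:14438552-14438801, minus strand: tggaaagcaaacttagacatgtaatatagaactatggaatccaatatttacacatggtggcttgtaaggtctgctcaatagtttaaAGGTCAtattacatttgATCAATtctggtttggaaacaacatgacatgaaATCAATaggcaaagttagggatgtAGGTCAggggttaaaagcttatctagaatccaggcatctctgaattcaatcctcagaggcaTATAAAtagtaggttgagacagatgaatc

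The Sult3a1 window held 1 STAT5 match, ending 101 bases before the start, and 1 ATTGAT match. The Sult1e1 window held 1 half-site. The first Sult2a8 window held 1 TATAAA match on the opposite strand, and the second held 2 half-sites, 2 ATTGAT matches and a TATAAA 24 bases before its start. None of these matches overlapped another. Of 32851 mouse windows of the same length, 7.02% held a STAT5 match, 14.0% a half-site, 6.72% an ATTGAT and 12.4% a TATAAA, so such matches are not rare. They are letters in a window and were not tested as binding sites, and the motifs were chosen with the data known.

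Partners were sought by fitting every gene on each of the 3 with limma and adjusting over all genes. The counts differed widely. Sult2a8 had 6761 partners at an adjusted p under 0.05, or 54.9% of 12314 genes, Sult3a1 had 3860 (31.3%) and Sult1e1 had 863 (7.01%). The count of Sult1e1 was 265 without mice 15 and 120 and 418 with ranks. With an absolute r of at least 0.5 the numbers were 2309 (18.8%), 71 (0.577%) and 6 (0.0487%). Of the partners of Sult3a1, 1981 were positive and 1879 negative, which is 51.3% positive, but with each array centred on its median the positive share was 38.6%. For Sult2a8 these shares were 54.3% and 44.5%, so the balance of signs depends on how arrays are centred. After removal of the first component, 1430 partners of Sult2a8 passed (11.6% of genes, 6.68% positive and 4.94% negative), 190 of Sult1e1 (1.54%, 0.617% positive and 0.926% negative) and 8 of Sult3a1 (0.065%, 0.0162% positive and 0.0487% negative).

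Of the 10 named partners of Sult3a1, the most negative was Glb1, the lysosomal beta-galactosidase, with r = -0.66 (limma adjusted p 2.99e-10, n = 102). It was followed by 4930522L14Rik (-0.59), Kif3a, a kinesin of ciliary transport (-0.56), and D17H6S56E-5 (-0.56). The most positive was Gnat1, a G protein subunit known from rod cells, with r = 0.55 (limma adjusted p 3.29e-06), ahead of Sult2a8 itself (0.54). 9430038I01Rik (0.53), 5830454E08Rik (0.53), Mcrip2 (0.53) and Hpd, an enzyme of tyrosine breakdown (0.52), came next. Sult2a8 aside, all but Gnat1, Glb1 and 4930522L14Rik had a larger absolute r with Sult2a8 than with Sult3a1: for Hpd r was 0.76 and for Kif3a -0.73.

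The partners of Sult1e1 were other genes. The most positive was 1700037H04Rik with r = 0.55 (limma adjusted p 1.15e-05, n = 104). Gpcpd1, a glycerophosphocholine phosphodiesterase (0.49), Slc43a1, an amino acid transporter (0.48), Fam118a (0.48), Slc2a1, a glucose transporter (0.47), and Pde4b, a cyclic AMP phosphodiesterase (0.46), followed. The most negative were Plekhb1 (-0.54), Pllp, a myelin and membrane protein (-0.52), Cyp2j9, a cytochrome P450 (-0.52), and Dbi, the acyl-CoA binding protein (-0.51). Once the first component was taken out, these 10 values stayed between 0.40 and 0.50 on the positive side and between -0.46 and -0.50 on the negative. Gpcpd1, Slc43a1 and Cyp2j9 were no partners of Sult2a8 or Sult3a1, with absolute r of at most 0.17. Pde4b and Dbi turned sign on the 18 limit-rich arrays alone.

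The partners of Sult2a8 were closer. Ces3a, a carboxylesterase of the liver, had r = 0.86 (limma adjusted p 8.65e-29, n = 104). Ndufaf1, an assembly factor of respiratory complex I (0.86), Eci1, an isomerase of mitochondrial fatty acid oxidation (0.86), Pon1, the paraoxonase secreted into blood (0.85), Nudt7, a peroxisomal coenzyme A hydrolase (0.85), and Klk5 (0.85) followed. On the negative side were Numbl (-0.85), Leprot (-0.83), Plp2 (-0.83) and Tagln2 (-0.82). After removal of the first component r was 0.60 for Ces3a and 0.58 for Nudt7, but -0.012 for Plp2 and -0.10 for Tagln2. Ces3a had a range of 43.1-fold, near that of Sult2a8 itself.

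**Figure D3:**
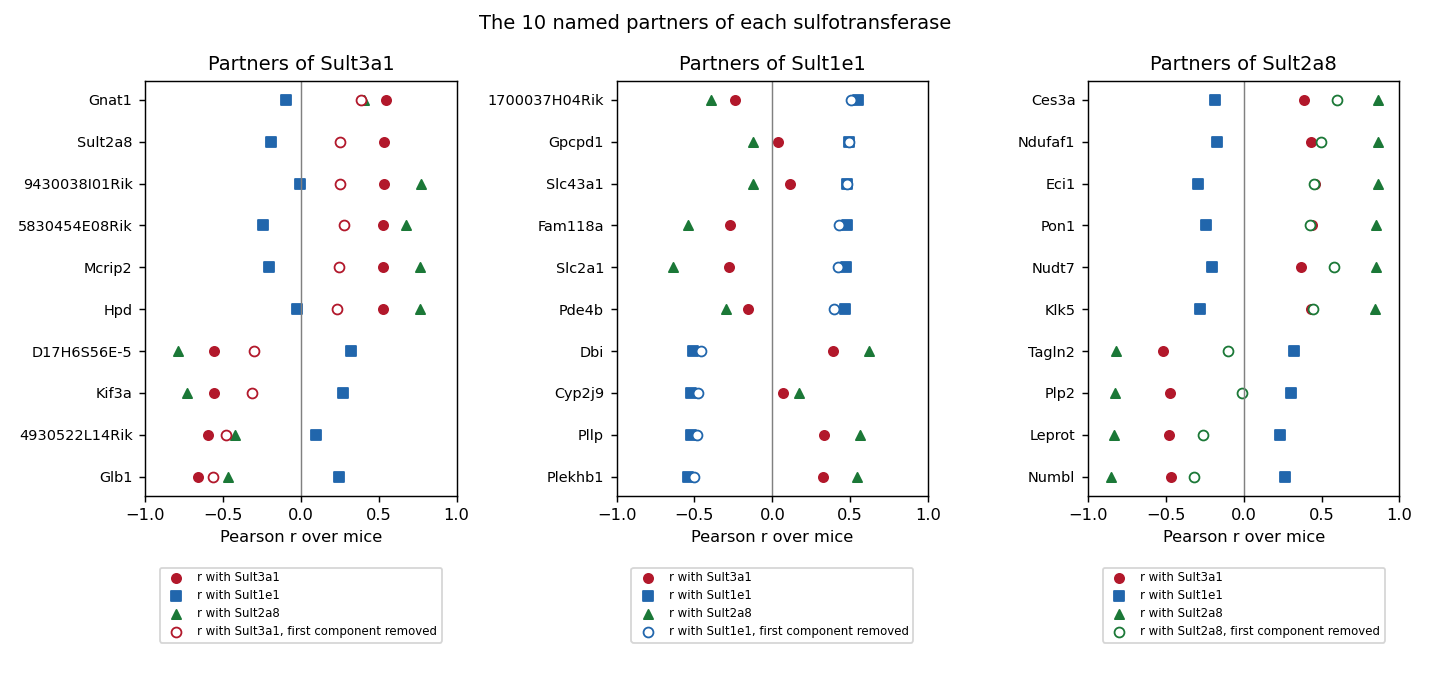
Pearson's r over mice (horizontal axis) of the 10 named partners of each gene, with Sult3a1 (circles), Sult1e1 (squares) and Sult2a8 (triangles). Open circles give r with the panel's own gene after removal of the first component. Partners of Sult1e1 keep their r, while those of Sult3a1 and Sult2a8 move toward 0.

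Because Sult3a1 and Sult2a8 share mice, all 3 genes were also fitted together, each scaled to an SD of 1, so that a coefficient gives the log2 difference per SD of 1 gene with the others held. Sult2a8 then had 5777 called genes (46.9% of 12312), Sult1e1 332 (2.7%) and Sult3a1 8 (0.065%). The positive and negative shares were 25.1% and 21.8% for Sult2a8, 1.1% and 1.6% for Sult1e1, and 0.0162% and 0.0487% for Sult3a1. For Sult2a8 the largest coefficients were those of Car3, a carbonic anhydrase (1.78, SE 0.14), Ces3a (1.38, SE 0.089) and Hao2, a peroxisomal oxidase (1.29, SE 0.14). For Sult1e1 they were those of Nnmt, nicotinamide N-methyltransferase (0.67, SE 0.15), Cyp4a14, a fatty acid hydroxylase (-0.45, SE 0.097), and Cyp2c55 (-0.41, SE 0.12). The limma adjusted p values of these genes were at most 0.0306. Cyp4a14 carried opposite signs, with a coefficient of 1.01 (SE 0.11) for Sult2a8.

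Of the 8 genes called for Sult3a1 in the joint fit, 6 lie on chromosome 9, which holds 5.73% of all genes. Sult3a1 itself is on chromosome 10. The 6 are Rpl14, a ribosomal protein (coefficient 0.32, SE 0.051), 2010315B03Rik (-0.24, SE 0.032), Dipk2a (-0.24, SE 0.046), Glb1 (-0.23, SE 0.033), Mapk6, a protein kinase (-0.14, SE 0.032), and Gnat1 (0.094, SE 0.020). Their limma adjusted p values ran from 4.27e-07 for 2010315B03Rik to 0.0385 for Mapk6. The other two are 4930522L14Rik on chromosome 5 (-0.18, SE 0.034) and Nfe2l2, which encodes the stress regulator NRF2, on chromosome 2 (-0.16, SE 0.034). Without the limit-rich arrays 4 genes passed, 3 of them on chromosome 9: Rpl14, 2010315B03Rik and Glb1. On the limit-rich arrays alone none passed (1520 at an unadjusted p under 0.05), and all 8 kept their sign.

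The 6 genes are not neighbours of each other. In the order of the 695 measured genes of chromosome 9 they stand at places 415 (Mapk6), 475 (Dipk2a), 555 (Gnat1), 631 (Glb1), 659 (Rpl14) and 694 (2010315B03Rik), all in the second part of the chromosome. As measured, 12 of the 99 placed genes among the 100 of largest absolute r with Sult3a1 lie on chromosome 9. For Sult1e1 the count was nearly the same, 11 of 99. Among the 100 genes of largest absolute r with Sult3a1 after removal of the first component, 24 lie on chromosome 9, 20 of them past its middle gene. Of the 8 genes called in that fit, 5 are on chromosome 9, with Crtap, a collagen-modifying protein, at r = 0.43 beside Rpl14 (0.61), 2010315B03Rik (-0.57), Glb1 (-0.56) and Dipk2a (-0.45). Crtap stands at place 630, next to Glb1. The named partner 5830454E08Rik stands at place 660, next to Rpl14, and was not called in the joint fit (limma adjusted p 0.239). The chromosomes were counted after the values were seen. Dipk2a was not called in the single fit (r = -0.15, limma adjusted p 0.250), where r was -0.042 on the 86 other arrays and -0.73 on the limit-rich ones. In the joint fit its coefficient for Sult2a8 was 0.31.

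**Figure D4:**
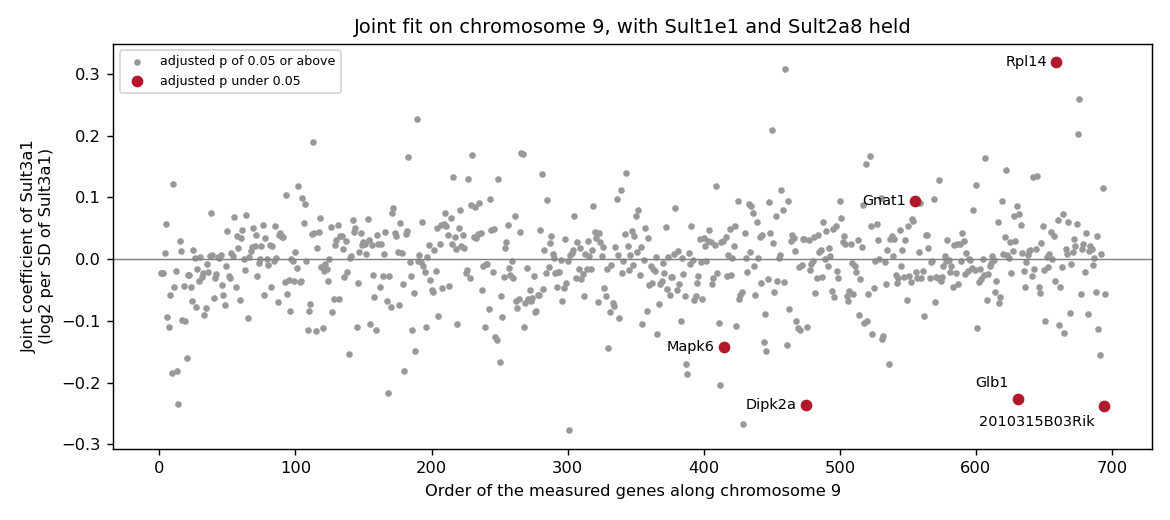
Coefficient of Sult3a1 in the joint fit (vertical axis, log2 per SD of Sult3a1) for each measured gene of chromosome 9 in its order along the chromosome (horizontal axis). Red points are the 6 genes with an adjusted p under 0.05, of which Rpl14 and Gnat1 are positive and the other 4 negative, and all stand between places 415 and 694 of 695.

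The other sulfotransferases varied far less. Of 21 listed family genes 10 were measured, Sult4a1 and Sult6b1 had too few values, and 9 were not analysed here, among them the other Sult2a genes and Sult3a2. Whether transcripts of these near copies reached the probes of Sult2a8 and Sult3a1 was not tested. The 7 further measured genes had ranges of 1.66-fold (Sult1c1) to 6.17-fold (Sult1c2). With Sult2a8, 5 of 9 family genes were positive partners, against 29.8% of all genes: Sult1c2 (r = 0.69), Sult1b1 (0.58), Sult3a1, Sult5a1 (0.43) and Sult1d1 (0.42). Sult2b1, which acts on cholesterol, was negative (-0.27). With Sult3a1, 5 of 9 were positive, against 16.1% of all genes: Sult2a8, Sult5a1 (0.37), Sult1b1 (0.34), Sult1c2 (0.27) and Sult1d1 (0.26). With Sult1e1 only Sult1c2 passed, with r = -0.40, and without mice 15 and 120 limma called none of the 9 (2 at an unadjusted p under 0.05). Sult1a1, a phenol sulfotransferase, had r of 0.077, 0.13 and -0.029 with Sult3a1, Sult1e1 and Sult2a8, and Sult1c1 had 0.14, 0.017 and 0.18, none of which passed.

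The gene lists below are read against the share of all genes called. That share was 29.8% positive and 25.1% negative with Sult2a8, 16.1% and 15.3% with Sult3a1, and 2.86% and 4.15% with Sult1e1. Over the 343 distinct measured genes of the 30 lists, Sult2a8 had 144 positive and 76 negative partners, Sult3a1 102 and 51, and Sult1e1 11 and 44. Those of Sult1e1 depended on mice 15 and 120, without which they were 2 and 8, and with ranks the counts were 3 and 14. Over all 12314 genes the counts of Sult1e1 were then 95 and 170 without these mice, and 162 and 256 with ranks. Net of the first component Sult2a8 had 30 and 24, Sult1e1 7 and 13, and Sult3a1 0 by limma (51 at an unadjusted p under 0.05). The shares of all genes in that fit were 6.68% positive and 4.94% negative with Sult2a8, 0.617% and 0.926% with Sult1e1, and 0.0162% and 0.0487% with Sult3a1.

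The supply of activated sulfate was measured through 13 of 18 listed genes. With Sult2a8, 8 were positive and 1 negative, against 29.8% and 25.1% of all genes. Tst (r = 0.62) and Mpst (0.60), both sulfurtransferases, and Csad, an enzyme of taurine synthesis (0.59), were positive. The 2 listed genes that make PAPS were split, Papss1 negative (-0.57) and Papss2 positive (0.53). With Sult3a1, 5 were positive and 2 negative, against 16.1% and 15.3% of all genes, again with Mpst (0.46) and Tst (0.43) positive and Papss1 negative (-0.45), and with Slc13a1, a sulfate transporter, at 0.32. Papss2 was positive here too (0.25). With the first component removed, r of Papss2 was -0.062 with Sult2a8 and -0.11 with Sult3a1. With Sult1e1, 2 were negative, against 4.15% of all genes: Csad (-0.34) and Bpnt1, which removes the spent donor (-0.30). Neither passed without mice 15 and 120, where limma called 0 of 13 (4 at an unadjusted p under 0.05).

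Glucuronidation, the conjugation route beside sulfonation, gave 5 of 6 measured genes as positive partners of Sult2a8, against 29.8% of all genes, with a median r of 0.78 against 0.050 over all genes. Ugt2a3 (0.82), Ugt2b1 (0.80), Ugt2b37 (0.79) and Ugt2b5 (0.78) were the closest. With Sult3a1, 5 of 6 were positive (median 0.39, against 0.0355 over all genes), from Ugt2a3 at 0.44 to Ugt2b1 at 0.37. With Sult1e1 the sign was opposite: 3 of 6 were negative (median -0.29, against 0.00016 over all genes), Ugt2b5 at -0.42, Ugt2b37 at -0.39 and Ugt2b1 at -0.29. All 3 stand near Sult1e1 on chromosome 5 and are counted again among its neighbours below. Without mice 15 and 120, 1 of 6 was negative. In the joint fit 2 of 6 were negative for Sult1e1 and 4 of 6 positive for Sult2a8, against 1.6% and 25.1% of all genes. After removal of the first component 1 of 6 was positive for Sult2a8 and 2 negative for Sult1e1, against 6.68% and 0.926% of all genes. Limma then called 0 for Sult3a1 (1 at an unadjusted p under 0.05), where the median r was -0.046.

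Targets of PPAR alpha, the receptor that turns on fatty acid oxidation, had the same signs as the glucuronidation genes. Of 19 measured targets, 15 were positive partners of Sult2a8 (median r 0.69), 15 were positive partners of Sult3a1 (median 0.39) and 11 were negative partners of Sult1e1 (median -0.29). The shares of all genes were 29.8%, 16.1% and 4.15%. Without mice 15 and 120 limma called none of the 19 for Sult1e1 (12 at an unadjusted p under 0.05, median -0.22), and with ranks it called 2. Ech1, of fatty acid oxidation, had r of 0.84 with Sult2a8, 0.49 with Sult3a1 and -0.38 with Sult1e1. Acadm (0.81), Vnn1 (0.81) and Cpt2 (0.80) followed for Sult2a8, and Cyp4a10 (0.47), Acot1 (0.47) and Cyp4a14 (0.46) for Sult3a1. For Sult1e1 the others were Cyp4a14 (-0.41), Fgf21, a fasting hormone (-0.38), and Acot1 (-0.38). In the joint fit 14 targets were positive for Sult2a8 and 7 negative for Sult1e1, against 25.1% and 1.6% of all genes. Net of the first component, 5 were positive for Sult2a8 and 2 negative for Sult1e1, against 6.68% and 0.926% of all genes. Limma then called 0 for Sult3a1 (1 at an unadjusted p under 0.05).

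Targets of the xenobiotic receptors CAR and PXR had these signs too. Of 18 measured, 12 were positive and 2 negative with Sult2a8 (Cyp2b13 0.82, Cyp2c37 0.79, Cyp2b9 0.76 and Nr1i3, CAR itself, 0.71), against 29.8% and 25.1% of all genes. With Sult3a1, 9 were positive and 1 negative (Nr1i3 0.46, Cyp2b9 0.43, Cyp2c37 0.40, Cyp2b13 0.39), against 16.1% and 15.3%. With Sult1e1, 7 were negative, led by Cyp2c29 (-0.48), Cyp3a41a (-0.38), Cyp3a25 (-0.34) and Aldh1a1 (-0.30), against 4.15% of all genes, but 1 without mice 15 and 120 and 1 with ranks. Net of the first component, 3 were positive and 2 negative with Sult2a8, against 6.68% and 4.94% of all genes. The median r was then -0.069, against 0.39 as measured. Among 19 glutathione transferases and NRF2 targets, 8 were positive and 5 negative with Sult2a8 (Gstz1 0.75, Gstm3 -0.64, Hmox1 -0.62, Gstt2 0.56). Sult3a1 had 4 positive and 5 negative (Gstm3 -0.44, Gstz1 0.43, Hmox1 -0.41, Gstt2 0.39). Sult1e1 had 2 negative, Gclc, of glutathione synthesis (-0.41), and Gstt1 (-0.37). The 5 negative with Sult2a8 and the 4 positive with Sult3a1 lie near the 25.1% and 16.1% of all genes.

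Bile acid genes bear on Sult2a8, whose substrates they supply. Of 20 measured, 16 were positive partners of Sult2a8 (median r 0.53), against 29.8% of all genes. The closest were Hsd3b7 (0.81), Slco1b2, an uptake transporter (0.80), Cyp7b1, of the alternative synthesis pathway (0.79), and Amacr (0.76). With Sult3a1, 12 were positive (median 0.31), against 16.1% of all genes: Cyp8b1, which sets the share of cholic acid (0.46), Slc10a1, the main uptake transporter (0.44), Slc27a5 (0.44) and Cyp7b1 (0.43). With Sult1e1, 3 were negative: Abcb11, the bile salt export pump (-0.39), Slco1b2 (-0.35) and Nr1h4, the bile acid receptor (-0.34), against 4.15% of all genes. Limma called 0 of 20 for Sult1e1 without mice 15 and 120 (9 at an unadjusted p under 0.05). Net of the first component, 4 were positive and 1 negative for Sult2a8, against 6.68% and 4.94% of all genes, and the median r was -0.11. For Sult3a1 limma then called 0 (3 at an unadjusted p under 0.05).

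Steroid genes bear on Sult1e1, whose substrate is estrogen. Of 16 measured receptors and enzymes of sex steroids and corticoids, 4 were negative and 1 positive with Sult1e1, against 4.15% and 2.86% of all genes, and 2 and 0 without mice 15 and 120. Hsd17b11 (-0.40), Hsd11b1, which regenerates corticosterone (-0.39), and Akr1c6 (-0.33) were negative, and Fkbp5, a glucocorticoid target, was positive (0.36). With Sult2a8, 12 were positive and 1 negative, against 29.8% and 25.1%, led by Hsd17b4 (0.78), Hsd11b1 (0.77), Akr1c6 (0.74) and Hsd17b11 (0.72). With Sult3a1, 6 were positive, against 16.1%: Hsd17b4 (0.44), Hsd11b1 (0.42), Hsd17b2 (0.39) and Hsd17b7 (0.39) led. Fatty acid synthesis and desaturation gave Sult2a8 11 positive of 14, against the same 29.8% (Elovl5 0.76, Fads2 0.66, Me1 0.61, Fads1 0.59), Sult3a1 5 (Elovl5 0.50, Me1 0.39, Fads1 0.35, Fads2 0.35) and Sult1e1 3 negative (Me1 -0.47, Fads1 -0.38, Mlxipl -0.29), against 1 without mice 15 and 120. Net of the first component, 1 of the 14 was positive and 3 were negative with Sult2a8, against 6.68% and 4.94% of all genes. The median r was then -0.16 with Sult2a8 (0.45 as measured) and -0.12 with Sult3a1 (0.18 as measured).

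Genes known to differ between male and female liver were partners in both sex classes. Some of them, such as Cyp2b9, Cyp2b13, Cyp4a10, Cyp4a14 and Ugt2b1, also stand on lists above, so these counts are not separate from those. Of all genes, 16.1% were positive and 15.3% negative with Sult3a1, and 29.8% and 25.1% with Sult2a8. Of 15 measured female-biased genes, 10 were positive and 1 negative with Sult3a1, itself a female-biased gene (Cyp4a10 0.47, Cyp4a14 0.46, Cyp2b9 0.43, Prom1 -0.43). Of 15 male-biased genes, 6 were positive and 1 negative with it (Cyp7b1 0.43, Igfals 0.42, Ugt2b1 0.37, Nudt7 0.37). Sult2a8 had 10 positive and 2 negative of the female-biased genes (Cyp2b13 0.82, Cyp2b9 0.76, Cyp4a10 0.75, Cyp4a14 0.75) and 8 positive and 1 negative of the male-biased ones (Nudt7 0.85, Ugt2b1 0.80, Cyp7b1 0.79, Igfals 0.66). Sult1e1 had 1 positive and 5 negative of the female-biased genes (Cyp4a14 -0.41, Cyp3a41a -0.38, Cyp4a10 -0.34, Hao2 -0.34) and 1 of each sign among the male-biased ones (Egfr 0.40, Ugt2b1 -0.29). Without mice 15 and 120 limma called 0 of the female-biased genes for Sult1e1 (7 at an unadjusted p under 0.05). Net of the first component, Sult2a8 had 1 positive and 2 negative of the female-biased genes and 4 positive of the male-biased ones. The shares of all genes were then 6.68% positive and 4.94% negative, and the median r of the classes was -0.096 and 0.084. The difference between both classes was not tested. Of 16 genes of the growth hormone axis, 4 were positive and 1 negative with Sult3a1, 6 positive and 2 negative with Sult2a8 and 1 negative with Sult1e1, positive counts that lie near the shares of all genes.

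Markers of several other cell types of the liver mostly ran opposite to Sult2a8 and Sult3a1. Endothelial, T and NK cell and B cell markers, which did not do so as a set, are given further below. With Sult2a8, 8 of 8 measured cholangiocyte markers were negative (median r -0.62: Cd24a -0.72, Mmp7 -0.71, Sox9 -0.68, Krt7 -0.63), against 25.1% of all genes. Of 14 stellate cell and fibroblast markers 11 were negative (median -0.60: Col4a1 -0.77, Col1a2 -0.76, Col1a1 -0.74, Sparc -0.72). Of 14 Kupffer cell and macrophage markers 11 were negative and 2 positive (median -0.58: Cd14 -0.69, Cd68 -0.68, C1qb -0.67, C1qa -0.65), and of 9 neutrophil markers 8 were negative (median -0.52: S100a8 -0.57, S100a9 -0.57, Ngp -0.56, Mmp8 -0.54). With Sult3a1 the same lists gave 7 of 8, 9 of 14, 10 of 14 and 4 of 9 negative, against 15.3% of all genes, with Epcam at -0.45, Col1a1 at -0.51, Cd68 at -0.48 and Mmp8 at -0.33 the largest of each. With Sult1e1, 4 of 8 cholangiocyte markers were positive (Cd24a 0.33, Krt7 0.30, Mmp7 0.30, Cldn7 0.28), against 2.86% of all genes. Limma called none of them without mice 15 and 120 (1 at an unadjusted p under 0.05) or with ranks (6). Macrophage markers gave it 1 of each sign (Clec4f -0.31, C1qa 0.29), and of 14 stellate and 9 neutrophil markers none passed limma's adjusted threshold (3 and 2 at an unadjusted p under 0.05). Net of the first component, none of the 8 cholangiocyte markers or the 14 stellate markers passed for Sult2a8, with median r of -0.060 and 0.0093. Of the 14 macrophage markers 2 were then positive, against 6.68% of all genes, none was negative, and the median r was 0.11. For the neutrophil markers the median r was 0.017. The part of cell makeup in the partner counts above was not tested.

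General hepatocyte markers did not move as a block with Sult2a8 or Sult1e1, where r ran from -0.10 to 0.80 and from -0.31 to 0.17. With Sult3a1 all 8 had a positive r, from 0.17 to 0.39 (median 0.26, against 0.0355 over all genes). Of 8 measured general markers, 3 were positive with Sult2a8 (Ttr 0.80, Apoc3 0.60, Tdo2 0.52), near the 29.8% of all genes, 4 with Sult3a1 (Apoa1 0.39, Apoc3 0.38, Tdo2 0.35, Ttr 0.34), against 16.1%, and 1 negative with Sult1e1 (Ttr -0.31). Pericentral markers, of the cells around the central vein, were positive in 8 of 10 and negative in 1 with Sult2a8, against 29.8% and 25.1% (Cyp2e1 0.79, Rgn 0.73, Lhpp 0.68, Oat 0.58). Sult3a1 had 5 positive and 1 negative (Cyp2e1 0.43, Slc1a4 -0.42, Lhpp 0.35, Glul 0.30) and Sult1e1 1 positive (Slc1a4 0.34). Periportal markers were split, 2 positive and 2 negative of 8 with Sult2a8, and 3 and 2 with Sult3a1. The 2 of each sign with Sult2a8 lie near the shares of all genes.

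The remaining lists covered other processes and tissues. The shares of all genes beside which they stand are again 29.8% positive and 25.1% negative with Sult2a8, 16.1% and 15.3% with Sult3a1, and 2.86% and 4.15% with Sult1e1. Acute phase genes gave Sult2a8 5 positive and 8 negative of 23 (Lcn2 -0.72, Cp -0.67, Saa4 0.50, Itih4 0.46), Sult3a1 3 and 4 (Lcn2 -0.44, Cp -0.41, Fgg 0.33, Il1rn -0.32) and Sult1e1 2 and 1 (Mt2 0.38, Lcn2 0.32, Itih4 -0.32). Clock genes gave Sult2a8 3 positive and 1 negative of 14, Sult3a1 1 positive and Sult1e1 1 negative. Cholesterol synthesis gave Sult2a8 2 positive and 4 negative of 11, Sult3a1 1 of each and Sult1e1 1 negative. Gluconeogenesis and fasting gave 3 positive and 2 negative of 10 with Sult2a8 and 3 positive with Sult3a1. Of markers of tissue that may adhere to liver, pancreatic acinar genes gave 1 of 7 with Sult2a8 and none with Sult3a1 or Sult1e1 by limma (0 at an unadjusted p under 0.05 in both). Skeletal muscle genes gave 6 positive of 11 with Sult2a8 and 2 with Sult3a1, and adipocyte genes 2 positive and 1 negative of 5 with Sult2a8 and 1 of each sign with Sult3a1. Endothelial markers gave 1 positive and 2 negative of 7 with Sult2a8 and 1 negative each with Sult3a1 and Sult1e1. Blood cell lists gave Sult2a8 2 negative of 13 T and NK cell markers, and 1 of each sign among 8 B and plasma cell and 5 erythroid markers. Sult3a1 had 1 of each sign, 2 positive and none on these 3 lists.

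**Figure D5:**
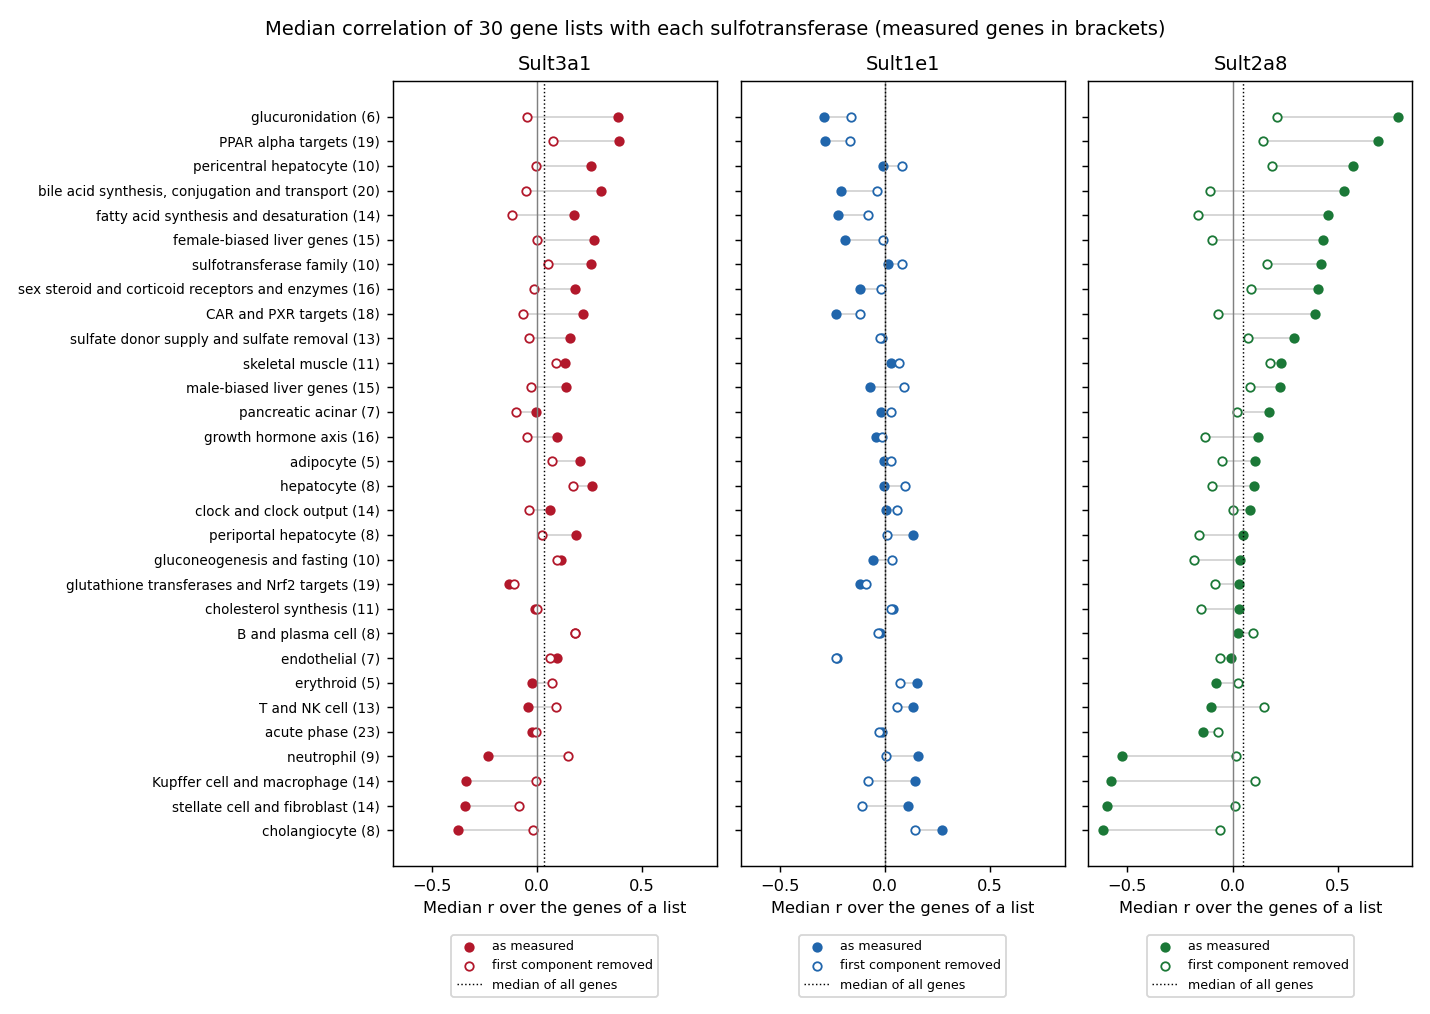
Median Pearson's r (horizontal axis) of each of 30 gene lists (rows, measured genes in brackets) with Sult3a1, Sult1e1 and Sult2a8. Filled points are as measured, open points after removal of the first component, and the dotted line is the median of all genes. PPAR alpha targets and glucuronidation lie right of 0 for Sult3a1 (0.39 and 0.39) and Sult2a8 (0.69 and 0.78) and left of it for Sult1e1 (-0.29 and -0.29), and most open points lie nearer 0.

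Held against Sult2a8 and Sult1e1 in the joint fit, no gene of the 30 lists was called for Sult3a1 by limma (0 of 341 genes tested, with 46 at an unadjusted p under 0.05, where 13.1% of all genes had such a p). Its partners on the lists were thus not told apart from those of Sult2a8. No difference in r between Sult3a1 and Sult2a8 was tested for single genes.

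An F2 cross carries linked blocks, so the 10 nearest measured genes on each side were read for each gene. Of the 20 around Sult3a1, 7 were partners (2 positive, 5 negative), near the 31.3% of all genes, with Marcks (r = -0.46) and Frk, a tyrosine kinase (-0.41), the largest. Around Sult1e1, 4 of 20 were partners (1 positive, 3 negative), against 7.01% of all genes, and the largest was Ugt2b5 (-0.42), of the Ugt2 genes that stand beside it on chromosome 5, while the adjacent Sult1d1 (0.10) and Sult1b1 (-0.043) did not pass. Around Sult2a8, 13 of 20 were partners (6 positive, 7 negative), near the 54.9% of all genes: Slc27a5, which conjugates bile acids (0.74), Meis3 (-0.68), Kptn (0.64), Lig1, a DNA ligase (-0.51), and Ccdc9 (-0.44) had an absolute r of at least 0.4. Of the 100 closest partners of Sult2a8, 17 of 99 with a known place lay on its own chromosome 7, which holds 7.69% of all genes. With the first component removed, the largest counts for Sult2a8 were 11 on chromosome 1, 11 on chromosome 8 and 9 on chromosome 11, of 99. As measured, the count for Sult3a1 and chromosome 10 was 4 of 99, near the 4.80% of all genes there. For Sult1e1 and chromosome 5 it was 5 of 99, near the 6.35% of all genes.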

How the data were processed

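Liver RNA of each F2 mouse was compared with a common pool on a 2-colour array, per the labels. The deposited values were read as log10 ratios of mouse to pool and multiplied by 3.32 to give log2. The steps by which the authors made them (dyes, background correction and normalization) were not found in the labels. Values at -2 and 2 (0.524% and 0.542% of all) were treated as not measured, and 1.69% were missing. A minimum of values on 90% of the 104 arrays was met by 20633 of 23536 probes, and 13238 of these carried a single symbol, taken from the platform annotation updated through RefSeq's gene table (GRCm38.p6), which gave 12315 genes. Probes of a gene were averaged. Of all probes, 14744 had 1 symbol, 18 several and 8774 none.

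Each gene was regressed on each of the 3 sulfotransferases, and on all 3 jointly, with limma 3.58.1 in R 4.3.3 (lmFit, eBayes), with Benjamini-Hochberg adjustment over all genes at 0.05. Pearson's r and Spearman's rho between the 3 had 100000 permutations (scipy 1.17.1). On simulated data the single fits recovered 98% to 100% of genes with a true r of 0.5 and 28% to 56% at 0.3. The joint fit recovered 88%, 100% and 92% at 0.5 for Sult3a1, Sult1e1 and Sult2a8. The limit for passing that test was lowered from 90% to 80% after the 88% was seen.

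The 3 genes and the 30 gene lists (503 entries, 365 matched by symbol, 1 by synonym, 137 without a measured gene) were chosen with earlier results of these data known. Named are the 3 genes, measured family members, 6 positive and 4 negative partners of each, the 3 largest joint coefficients, up to 4 called genes of each list described, and neighbours with an absolute r of at least 0.4. Papss2 is named besides these and is not among the relations counted below. Which lists have named genes was settled with their values in view: 17 beside the family list. The motifs and the chromosome counts were also chosen after seeing the data. The tried alternatives were values kept at the limits, arrays with and without many values at the limits, arrays centred on their medians, ranks, removal of the 2 farthest mice or of the first principal component, genes with values on every array, each probe alone, and an absolute r of at least 0.5.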

Additional observations from a re-analysis of the deposited data

How the results depend on the processing

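Of the 236 named gene relations, 225 passed the adjusted threshold. With values kept at the limits or arrays centred on their medians, 235 stayed on their side of it with the same sign, and 228 did so without the limit-rich arrays. Without the 2 farthest mice 35 of 222 relations no longer passed, and with ranks 28. With the first component removed 129 of 236 no longer passed and 37 turned sign, and on the limit-rich arrays alone (16 or 18 mice) 144 no longer passed and 9 turned sign. The causes were not tested.

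Partner counts moved as follows. On the limit-rich arrays alone Sult3a1 and Sult1e1 had 0 partners by limma (2177 and 239 at an unadjusted p under 0.05) and Sult2a8 2542. With the first component removed the counts were 8, 190 and 1430, and with an absolute r of at least 0.5 they were 71, 6 and 2309. Sult1e1 had 265 partners without mice 15 and 120, 233 of them among the 863, and 418 with ranks. With each probe fitted alone Sult2a8 had 10332, over more probes than genes. In the joint fit Sult3a1 had 4 called genes without the limit-rich arrays. On those arrays alone the joint counts were 0 for Sult3a1 and 0 for Sult1e1 (1520 and 346 at an unadjusted p under 0.05) and 1577 for Sult2a8. With the first component removed they were 206 for Sult1e1 and 1713 for Sult2a8. The r of Sult3a1 with Sult2a8 no longer passed on the limit-rich arrays (0.52) or with the first component removed (0.25). The range of Sult1e1 was 14.1-fold on the limit-rich arrays.

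With the first component removed r turned sign against Sult3a1 for C1qb (0.042), Cd24a (0.068), Cyp2b13 (-0.062), Cyp2b9 (-0.0036), Cyp2c37 (-0.0068), Fads1 (-0.097), Fads2 (-0.087), Glul (-0.020), Hsd11b1 (-0.018), Mmp8 (0.023), Nudt7 (-0.024), S100a8 (0.15), S100a9 (0.17), Sult1c2 (-0.18), Ttr (-0.096), Ugt2a3 (-0.0013), Ugt2b1 (-0.10), Ugt2b37 (-0.045) and Ugt2b5 (-0.046). Against Sult2a8 it did so for C1qb (0.10), Cd14 (0.083), Cd68 (0.13), Cp (0.026), Fads1 (-0.30), Fads2 (-0.042), Gstt2 (-0.084), Hmox1 (0.076), Igfals (-0.12), Itih4 (-0.16), Meis3 (0.14), Mmp8 (0.090), Ngp (0.076), Nr1i3 (-0.11), S100a8 (0.13), S100a9 (0.091), Sparc (0.11) and Sult2b1 (0.16). On the limit-rich arrays alone it did so against Sult1e1 for C1qa (-0.057), Dbi (0.053), Gstt1 (0.011), Hao2 (0.067), Itih4 (0.27), Nr1h4 (0.059) and Pde4b (-0.083), against Sult3a1 for Sult1c2 (-0.28), and in the joint coefficient of Sult1e1 for Cyp2c55 (0.064).

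Each of the 3 genes rests on 1 probe, no array was repeated, and signal relative to background was not used here. A division of mice into clusters was planned for genes with separate clusters and was not run, since no gap set clusters apart.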
